A study of Mus musculus with 15 samples.

Results

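Genes of vessel sprouting were followed through a wounding course in mouse skin: apelin (Apln) and its receptor Aplnr, the angiopoietins Angpt1 and Angpt2 with the receptors Tek and Tie1, the growth factor Vegfa with its receptors Kdr and Flt1, and the endothelial proteoglycan gene Esm1. These 10 genes were taken by symbol from the 30281 named genes of each count file, and all 10 were among the 17136 genes that passed the filter on low counts. The mice were C57BL/6 and the course had 5 times, day 0, 1, 3, 5 and 7, with 3 libraries each and 15 in all, and a library held 38062562 to 60450396 estimated counts. All libraries carry the label of a wound, day 0 too, so the first time is called day 0 and not unwounded skin. The labels give no age, sex or wound size for the mice and do not tell whether libraries of a time are different animals, so p-values cover the spread between libraries only, which may be technical.

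New capillaries sprout from existing ones when endothelial cells meet VEGF-A, the product of Vegfa, which binds Kdr (VEGF receptor 2), the main signalling receptor, and Flt1 (VEGF receptor 1), which binds it tightly and also exists as a soluble trap. The leading cells of a sprout, called tip cells, are known to make apelin, angiopoietin 2 and the protein of Esm1, endocan. Angiopoietin 1, made largely by mural cells (the pericytes and smooth muscle cells that wrap a vessel) and other stromal cells, activates the receptor Tek (Tie2) and keeps vessels quiet, whereas angiopoietin 2, stored in endothelial cells, competes with it and loosens the vessel wall; Tie1 is a related receptor without a well-defined ligand of its own that modulates Tek.

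Promoters are shown for 3 endothelial genes with different courses, Apln, Esm1 and Tie1, so that the start regions of genes described below can be read beside their values. The sequences are the 250 bases before the start of a RefSeq transcript in build GRCm38.p6, 5′ to 3′ on the strand of the gene. They lie at chrX:48034854-48035103 (minus strand) for Apln, chr13:113209409-113209658 (plus strand) for Esm1 and chr4:118489850-118490099 (minus strand) for Tie1. The genome build behind the counts is not given in the sources used here, so these places belong to RefSeq alone. Capitals mark the letters GGAA, the core recognised by ETS factors (a family that includes regulators of endothelial genes), or TTCC where the core is on the other strand.
Apln: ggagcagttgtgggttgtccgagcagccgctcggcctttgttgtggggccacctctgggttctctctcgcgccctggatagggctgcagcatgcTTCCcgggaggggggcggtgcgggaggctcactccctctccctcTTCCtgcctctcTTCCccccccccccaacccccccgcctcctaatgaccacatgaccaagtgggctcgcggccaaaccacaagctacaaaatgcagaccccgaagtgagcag
Esm1: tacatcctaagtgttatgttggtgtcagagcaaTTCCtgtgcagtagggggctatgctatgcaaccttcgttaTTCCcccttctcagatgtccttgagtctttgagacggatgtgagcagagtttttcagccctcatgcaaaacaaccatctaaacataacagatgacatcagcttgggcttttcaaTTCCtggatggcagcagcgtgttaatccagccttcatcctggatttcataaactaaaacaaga
Tie1: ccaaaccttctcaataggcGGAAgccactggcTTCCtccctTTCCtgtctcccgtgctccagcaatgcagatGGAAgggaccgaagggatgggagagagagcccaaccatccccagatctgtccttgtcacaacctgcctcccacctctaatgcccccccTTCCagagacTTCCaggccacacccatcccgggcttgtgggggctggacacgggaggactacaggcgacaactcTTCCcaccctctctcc
The Tie1 window held 7 such cores and those of Apln and Esm1 held 3 each, and the median over 32851 RefSeq promoter windows of the same length was 3, with 93.4% holding at least 1. The core letters of the hypoxia response element, ACGTG or GCGTG on either strand, were present once in the Esm1 window, as GCGTG, and in 38.6% of all windows. They were at 0 in the Apln and Tie1 windows, which says only that these letters are not in those bases.

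The tissue label was checked against marker genes. All 20 general endothelial markers (Pecam1, Cdh5 and others) had counts in each of the 15 libraries, as did all 12 keratinocyte and all 10 fibroblast markers, and muscle and fat markers were present as well. In 2 libraries, day 5 replicate 2 (1.34%) and day 7 replicate 3 (1.54%), a sizeable share of counts came from hair follicle keratins, which elsewhere made up no more than 0.151%. The same 2 libraries had the lowest summed endothelial marker levels, 601 and 587 CPM (the usual depth-scaled unit, here with edgeR's TMM factors), against 623 to 1386 CPM in the other libraries. Day 0 replicate 1 had 252 CPM of summed neutrophil markers against 79.1 and 108 CPM in replicates 2 and 3. In bulk tissue, more or fewer cells of a type and more or less RNA per cell cannot be told apart.

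Apln was low at day 0, at 6.66, 5.62 and 7.96 CPM in replicates 1, 2 and 3. It stood at 23.3, 15.3 and 19.3 CPM at day 1 and at 23.4, 37.7 and 22.6 CPM at day 3. The later times had lower means, 18.1, 8.49 and 15.7 CPM at day 5 and 15.5, 12.3 and 11.9 CPM at day 7. Every library after day 0 lay above all 3 day 0 libraries, and day 5 replicate 2, 1 of the libraries rich in hair keratins, came closest to them. In the quasi-likelihood test of edgeR, with p-values adjusted over all genes by Benjamini-Hochberg, Apln rose by 1.52 ± 0.29 (SE) on the log2 scale at day 1 (adjusted p = 0.0148) and by 2.05 ± 0.29 at day 3 (adjusted p = 0.0328). Its differences of 1.06 ± 0.28 at day 5 and 0.97 ± 0.28 at day 7 missed the threshold of 0.05 (edgeR adjusted p = 0.087 and 0.0569). Without both hair-rich libraries these 2 differences were 1.32 and 1.04 and passed (edgeR adjusted p = 0.03 and 0.0411). The day 1 call was lost without day 0 replicate 2 or day 1 replicate 1 (edgeR adjusted p = 0.0871 and 0.0595).

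Aplnr, the G protein-coupled receptor for apelin, had 19.4, 20.9 and 24.1 CPM at day 0 and 34.2, 27.4 and 41.4 CPM at day 1. It reached 80.9, 84.5 and 46.6 CPM at day 3 and 77.9, 28.7 and 60.5 CPM at day 5, and was at 44.9, 24.9 and 38.7 CPM at day 7. The receptor was thus highest at day 3 by its mean and all 12 later libraries were above the day 0 libraries, although day 7 replicate 2 exceeded the highest of them by less than 1 CPM. Aplnr rose by 1.72 ± 0.34 (SE) at day 3 (edgeR adjusted p = 0.0447). At day 5 its difference from day 0 was 1.37 ± 0.34 (edgeR adjusted p = 0.0772), which was 1.69 and passed without both hair-rich libraries (edgeR adjusted p = 0.0267), and at day 7 it was 0.75 ± 0.34 (edgeR adjusted p = 0.168). At day 1 the receptor differed by 0.68 ± 0.34, short of the threshold (edgeR adjusted p = 0.216), and the ratio of ligand to receptor is given below. The day 3 call of Aplnr was also lost without a filter on low counts (edgeR adjusted p = 0.0534).

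Angpt2, the antagonist angiopoietin, was tightly grouped at day 0 and higher at each later time. It stood at 12.9, 12.4 and 13.8 CPM in the day 0 libraries, at 26.0, 23.5 and 27.8 CPM at day 1 and at 25.5, 27.8 and 26.2 CPM at day 3. Day 5 had 27.8, 17.7 and 26.3 CPM and day 7 had 24.6, 23.3 and 20.5 CPM. No later library overlapped the day 0 libraries, and the lowest of the 12 was again the hair-rich day 5 replicate 2. Angpt2 rose in all 4 comparisons with day 0, which share the day 0 libraries: by 0.99 ± 0.15 (SE) at day 1 (edgeR adjusted p = 0.00713), 1.03 ± 0.15 at day 3 (edgeR adjusted p = 0.0328), 0.88 ± 0.15 at day 5 (edgeR adjusted p = 0.0352) and 0.81 ± 0.15 at day 7 (edgeR adjusted p = 0.0121). Without day 0 replicate 2 none of these passed (edgeR adjusted p = 0.0571, 0.186, 0.135 and 0.0503 at day 1, 3, 5 and 7), while the differences were still 0.95, 0.99, 0.84 and 0.77. The day 5 call was also lost without day 0 replicate 3 or day 5 replicate 1 or 3 (edgeR adjusted p = 0.0871, 0.119 and 0.102). When only the libraries of the times compared were fitted, the calls at day 5 and day 7 were lost (edgeR adjusted p = 0.106 and 0.0632), with differences of 0.89 and 0.81. The mitochondrial share of counts was 5.29% to 6.30% in the day 0 libraries. It was higher without overlap at day 1 (6.98% to 7.53%), day 5 (7.42% to 8.70%) and day 7 (8.09% to 9.44%). At day 3 it overlapped day 0 (5.34% to 6.30%). Its part in these and the other differences from day 0 was not tested.

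Angpt1, the Tek agonist, did not pass against day 0 at any time. It was at 22.7, 29.0 and 27.3 CPM at day 0, at 23.7, 25.9 and 22.5 CPM at day 1 and at 18.8, 20.5 and 21.6 CPM at day 3. At day 5 it had 20.7, 15.7 and 19.8 CPM, and at day 7 33.7, 26.4 and 18.0 CPM, the widest spread of any time for this gene. The libraries of day 3 and of day 5 lay below those of day 0, with log2 differences of -0.38 ± 0.19 and -0.49 ± 0.19 (edgeR adjusted p = 0.363 and 0.188). Mural cells are a known source of Angpt1: the 12 mural markers summed to 1294 to 1431 CPM at day 0, 1254 to 1493 CPM at day 1, 1574 to 1843 CPM at day 3, 928 to 1853 CPM at day 5 and 937 to 1354 CPM at day 7, where the lowest values of day 5 and day 7 were those of the hair-rich libraries. These markers did not all move together. Des, the largest in the sum, had means of 512.8, 623.8 and 319.9 CPM at day 0, 3 and 7. Rgs5 had means of 183.3, 247.5 and 309.7 CPM at the same times. Fibroblast markers, of another stromal source, were below day 0 in the median at each time, by 1.02 on the log2 scale at day 1, 0.63 at day 3, 0.81 at day 5 and 0.53 at day 7, and the part of either in the Angpt1 values was not tested.

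The angiopoietin receptors took different courses. Tek was at 36.7, 49.2 and 55.0 CPM at day 0, with replicate 1 lowest, and at 38.6, 28.2 and 32.7 CPM at day 1. It stood at 44.1, 47.3 and 42.7 CPM at day 3, at 35.6, 24.0 and 38.6 CPM at day 5 and at 45.6, 30.2 and 19.5 CPM at day 7. Day 0 had the highest mean of the 5 times, 47.0 ± 9.31 CPM (SD, n = 3), but the libraries overlapped with those of each later time and none of the 4 differences passed (edgeR adjusted p = 0.188 to 0.923). Some macrophages also carry Tek: the 9 macrophage markers summed to 3155 to 4621 CPM at day 0, 3044 to 3870 CPM at day 1, 4439 to 4643 CPM at day 3, 1951 to 3432 CPM at day 5 and 2013 to 3376 CPM at day 7, and their part in the Tek values was not tested. The sum holds markers that went different ways at day 1. Mean Lyz2, the largest of them, was 1282 CPM at day 1 against 1764 CPM at day 0, and mean Mrc1 was 697.1 against 529.1 CPM.

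Tie1 was tight at day 0, with 36.2, 36.7 and 36.8 CPM, and wide afterwards. It had 42.4, 33.7 and 50.8 CPM at day 1, 80.7, 83.0 and 56.1 CPM at day 3, 64.2, 31.3 and 68.0 CPM at day 5 and 45.3, 31.7 and 33.3 CPM at day 7. Only the day 3 libraries were all above those of day 0. The difference at day 3 was 1.00 ± 0.26 (SE) on the log2 scale and did not pass over all genes (edgeR adjusted p = 0.0995), although it did when day 0 and day 3 alone were fitted and by DESeq2 (adjusted p = 0.0411 and 0.00979). At day 7 the mean of Tie1, 36.7 ± 7.45 CPM, was back at the day 0 mean of 36.6 ± 0.32 CPM.

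The ligand Vegfa was higher at day 1 and day 3 than at day 0 in all libraries. EdgeR did not call these differences. Vegfa was at 34.3, 33.3 and 35.6 CPM at day 0, at 44.3, 37.2 and 42.2 CPM at day 1 and at 40.1, 42.5 and 42.2 CPM at day 3. At day 5 the values were 34.3, 30.0 and 28.9 CPM, and at day 7 41.7, 34.7 and 31.5 CPM. The log2 differences from day 0 were 0.26 ± 0.11 and 0.27 ± 0.11 (SE) at day 1 and day 3 (edgeR adjusted p = 0.144 and 0.239). Vegfa was lower at day 5 than at day 3 by 0.42 ± 0.11, with no overlap between the libraries, which passed by DESeq2 (adjusted p = 0.0227) and did not by edgeR (adjusted p = 0.164).

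Kdr, the main signalling receptor for VEGF-A, was at 39.3, 32.5 and 40.04 CPM at day 0 and at 46.3, 30.8 and 39.1 CPM at day 1. Its highest mean was at day 3, with 44.0, 51.1 and 43.6 CPM, followed by 46.9, 23.1 and 42.6 CPM at day 5. The lowest mean was at day 7, with 32.8, 26.6 and 25.1 CPM. No comparison with day 0 passed (edgeR adjusted p = 0.257 to 0.986), and the day 3 libraries were above those of day 0 by a log2 difference of 0.31 ± 0.23 (SE).

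Flt1, the receptor that also traps VEGF-A, was highest on average at day 1. It was at 35.5, 23.3 and 28.7 CPM at day 0, at 57.8, 37.1 and 41.8 CPM at day 1 and at 43.2, 48.6 and 38.2 CPM at day 3. It then stood at 32.2, 23.3 and 39.5 CPM at day 5 and at 27.4, 21.0 and 15.7 CPM at day 7. The libraries of day 1 and of day 3 were all above those of day 0, with log2 differences of 0.64 ± 0.25 and 0.57 ± 0.25 (SE) short of the threshold (edgeR adjusted p = 0.12 and 0.281). Over the whole course, however, Flt1 changed by the edgeR F test of all 4 differences from day 0 (adjusted p = 0.0406). That call was lost on leaving out day 0 replicate 2 or 3, any 1 library of day 1 or day 3, day 5 replicate 1, or day 7 replicate 2 or 3. The counts are per gene, so the membrane and the soluble form are not told apart. Monocytes and macrophages can carry Flt1 as well; the sums of their markers are those given beside Tek, and their part in the Flt1 values was not tested.

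Esm1 had the fewest counts of the 10 genes, 29 to 255 per library. It was at 0.671, 0.734 and 1.51 CPM at day 0 and at 1.77, 0.912 and 2.27 CPM at day 1. The values were 4.12, 3.50 and 2.31 CPM at day 3, 3.81, 2.01 and 5.02 CPM at day 5 and 1.51, 2.33 and 3.02 CPM at day 7. From day 3 on every library was above the highest day 0 library, though day 7 replicate 1, at 1.514 CPM, was next to day 0 replicate 3, at 1.509 CPM. The log2 differences of 1.77 ± 0.46 at day 3, 1.89 ± 0.46 at day 5 and 1.23 ± 0.45 at day 7 (SE) were not called by edgeR (adjusted p = 0.0948, 0.0733 and 0.107) and passed by DESeq2 (adjusted p = 0.00577, 0.00227 and 0.0453). The summed level of 12 keratinocyte markers moved as well. Its range was 4712 to 9646 CPM in the day 0 libraries and 8703 to 18150 CPM in those of day 1. It was highest on day 3 (14140 to 20160 CPM), without overlap with day 0. The day 5 range (10250 to 13940 CPM) also lay above day 0, and the day 7 range (8860 to 9077 CPM) fell inside it. Keratinocyte markers did not all move together. From day 0 to day 3 mean Krt6a went from 285.7 to 2220 CPM and mean Krt6b from 209.5 to 2505 CPM. Over the same times mean Trp63 went from 102.2 to 106.3 CPM and mean Krt10 from 1944 to 1491 CPM. The part of epidermal cells in the Esm1 values was not tested.

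**Figure D1:**
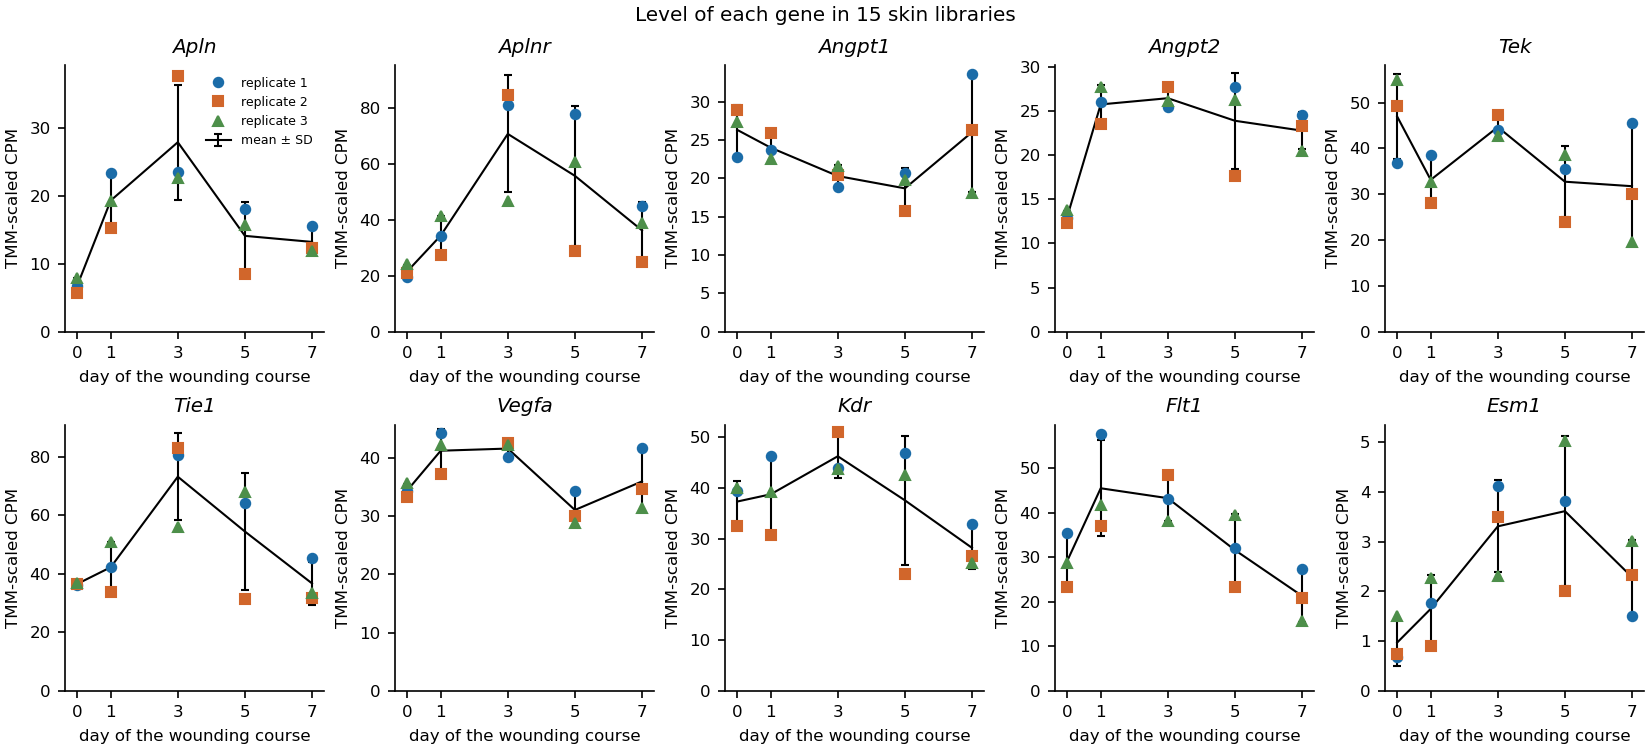
TMM-scaled CPM of the 10 genes (vertical axes, each from 0) against the day of the wounding course, with a symbol for each of the 3 libraries per time and a line through the means with SD bars. Apln and Angpt2 lie above their day 0 values in all 12 later libraries, and Apln, Aplnr, Angpt2, Tie1, Vegfa and Kdr have their highest mean at day 3.

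Counted together, 2 of the 10 genes rose at day 1 (Apln and Angpt2), 3 at day 3 (Apln, Aplnr and Angpt2) and 1 each at day 5 and day 7 (Angpt2), and edgeR called none lower. Over all genes tested, 4.22% were called higher at day 1, 0.595% at day 3, 0.21% at day 5 and 3.1% at day 7, and 3.36%, 0.193%, 0.292% and 3.94% were called lower. The 3 calls at day 3 were lost without day 0 replicate 2, day 0 replicate 3, day 3 replicate 1 or day 3 replicate 2 (edgeR adjusted p = 0.0722 to 0.22), 4 settings in which edgeR called 0 genes of any kind, with 1617 to 2079 at an unadjusted p under 0.05. Against day 0 replicate 1 alone, the edgeR calls of the 10 genes against day 0 were lost. DESeq2 on all libraries called 2, 5, 4 and 3 of the 10 genes at day 1, 3, 5 and 7. It also called more of all genes than edgeR at each time, as counted in the closing section on processing, so the edgeR shares are not its background. Without day 5 replicate 2 edgeR called 3 at day 5 (Apln, Aplnr and Angpt2), and without day 7 replicate 1 it called 2 at day 7 (Angpt2 higher and Tek lower). The F test over the course called 4 of the 10 genes, Apln, Aplnr, Angpt2 and Flt1, against 13.9% of all genes. It also called 8 of 20 general endothelial markers, so such a share was not particular to the 10 genes. Of other lists it called 4 of 10 fibroblast, 5 of 9 macrophage and 0 of 6 skeletal muscle markers. For the 10 genes, leaving out 1 library at a time gave 2 (without day 0 replicate 2, day 1 replicate 1 or 2, or day 3 replicate 1 or 2) to 7 (without day 5 replicate 2). Apln and Angpt2 were called in all 15 of these settings, and Aplnr was not without any 1 library of day 0, day 1 replicate 1 or 2, or day 3 replicate 1 or 2.

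By overlap of the libraries, 5 of the 10 genes lay wholly above day 0 at day 1 (Apln, Aplnr, Angpt2, Vegfa and Flt1), where 19.8% of all genes did. At day 3 there were 8 above, all but Angpt1 and Tek, and 1 below, Angpt1, against 13.1% and 12.4% of all genes. At day 5 there were 4 above (Apln, Aplnr, Angpt2 and Esm1) and 1 below (Angpt1), against 12.3% and 13.8% of all genes, and at day 7 the same 4 were above, against 13.9%. The median log2 difference of the 10 genes from day 0 was 0.45 at day 1, 0.79 at day 3, 0.35 at day 5 and 0.04 at day 7, and that of all genes tested was within 0.02 of 0 each time. Most of the general endothelial markers also lay wholly above day 0 at day 3, Pecam1 and Cdh5 among them, while Cldn5, Tal1 and Ushbp1 overlapped it.

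**Figure D2:**
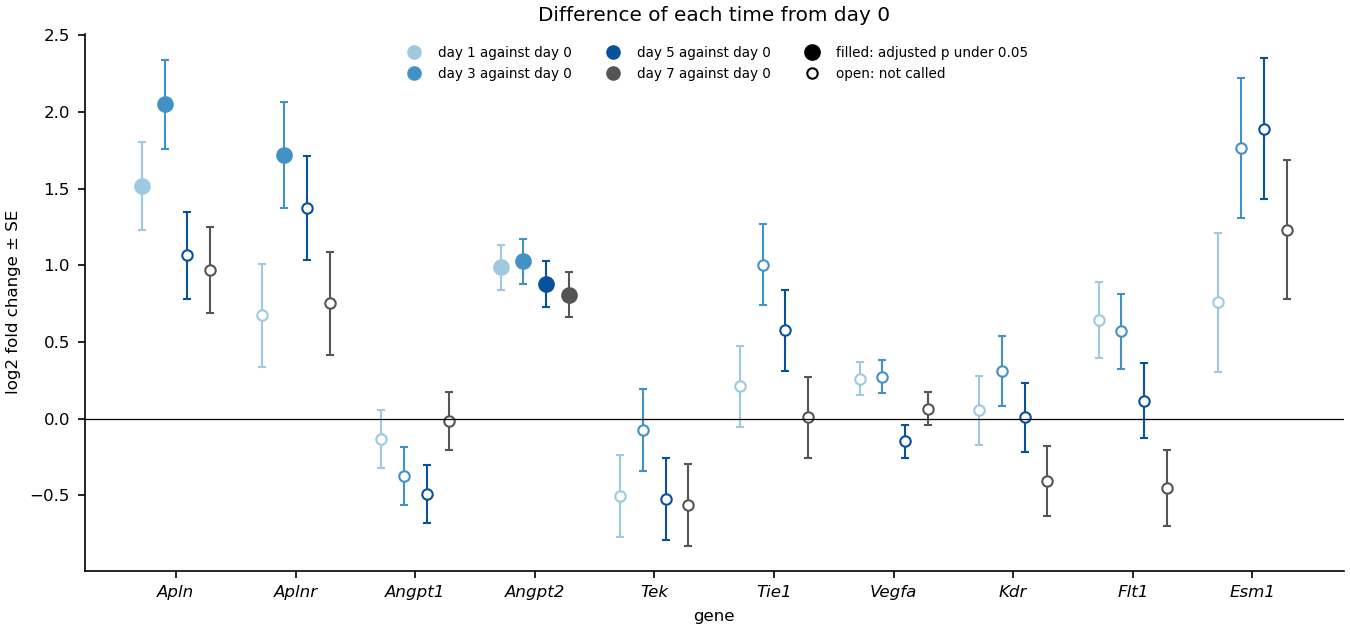
Log2 fold change of each gene against day 0 with its SE, for day 1, 3, 5 and 7 (colours), large filled symbols marking an edgeR adjusted p under 0.05. Angpt2 is filled at all 4 times, between 0.81 and 1.03, Apln at day 1 and day 3, and Aplnr at day 3.

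Between neighbouring times, edgeR called 0 of the 10 genes between day 1 and day 3, day 3 and day 5, or day 5 and day 7, with 3, 2 and 3 of them at an unadjusted p under 0.05, and over all genes the shares called were 0.00584%, 0.0233% and 0.00584%, with 12.8%, 15.1% and 9.18% at an unadjusted p under 0.05. DESeq2 called more of all genes, as counted in the closing section on processing. Of the 10 genes it called 0, 2 and 0, the 2 being Apln and Vegfa, which were lower at day 5 than at day 3. Apln was lower there by 0.98 ± 0.28 (SE) on the log2 scale (edgeR adjusted p = 0.202, DESeq2 adjusted p = 0.0325). Aplnr and Tie1 were higher at day 3 than at day 1 by 1.04 ± 0.34 and 0.79 ± 0.26 (edgeR adjusted p = 0.246 and 0.253).

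Pairs of genes that act on each other were compared through the ratio of their counts within a library, which does not depend on library scaling. The size of such a ratio carries the lengths of both transcripts, so only its change over time is read. For 4 ratios, the endothelial marker sum and 8 genes relative to that sum, the 3 day 0 libraries were set against the 12 later ones by an exact two-sided permutation test over its 455 arrangements, with Benjamini-Hochberg adjustment over these 13 values. The smallest p this design can give is 0.0022.

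The Angpt2:Angpt1 ratio was higher after day 0. It was 0.57, 0.43 and 0.50 in the day 0 libraries and 1.08 ± 0.17 (SD, n = 3) at day 1, 1.31 ± 0.08 at day 3, 1.27 ± 0.12 at day 5 and 0.92 ± 0.20 at day 7. All 12 later libraries were above the highest of day 0, the lowest of them day 7 replicate 1 at 0.73. On the log2 scale the later libraries were higher by 1.18, that is 2.26-fold (exact permutation p = 0.0022, the smallest possible, adjusted p = 0.00816). Leaving out each library in turn gave 1.07 to 1.28.

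The Tie1:Tek ratio was likewise higher. It was 0.98, 0.75 and 0.67 in day 0 replicates 1, 2 and 3, and 1.28 ± 0.24 (SD, n = 3) at day 1, 1.63 ± 0.28 at day 3, 1.62 ± 0.28 at day 5 and 1.25 ± 0.40 at day 7. All 12 later libraries exceeded the day 0 libraries, though day 7 replicate 1, at 0.993, was next to day 0 replicate 1, at 0.985. The difference was 0.84 on the log2 scale, or 1.79-fold (exact permutation p = 0.0022, the smallest possible, adjusted p = 0.00816). Relative to the endothelial marker sum described below, Tie1 differed by 0.05 and Tek by -0.80. Relative to that sum, most of the change in the ratio thus lay in Tek. In CPM this did not hold at day 3, when mean Tie1 was 73.25 CPM against 36.55 CPM at day 0. Mean Tek was 44.67 CPM at day 3 against 46.98 CPM at day 0. At day 7 the means were 36.75 CPM for Tie1 and 31.75 CPM for Tek. The ratio and the Tek share below are not separate results. The part of macrophages, whose marker sums are given beside Tek, was not tested.

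For the other pairs no difference between day 0 and all later libraries passed. The Kdr:Flt1 ratio was 1.30 ± 0.17 (SD, n = 3) at day 0 and 0.86 ± 0.07 at day 1, where all 3 libraries were below those of day 0, and then 1.07 ± 0.07, 1.18 ± 0.25 and 1.35 ± 0.21 at day 3, 5 and 7 (difference of -0.24 on the log2 scale, exact permutation adjusted p = 0.28). The Apln:Aplnr ratio was 0.31 ± 0.04 at day 0, 0.57 ± 0.11 at day 1, above day 0 in all 3 libraries, and 0.41 ± 0.10, 0.26 ± 0.03 and 0.38 ± 0.10 at day 3, 5 and 7 (difference of 0.30, exact permutation adjusted p = 0.382). A comparison of 3 libraries against 3 cannot give an exact p under 0.1, so the day 1 ratios are given as values only.

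**Figure D3:**
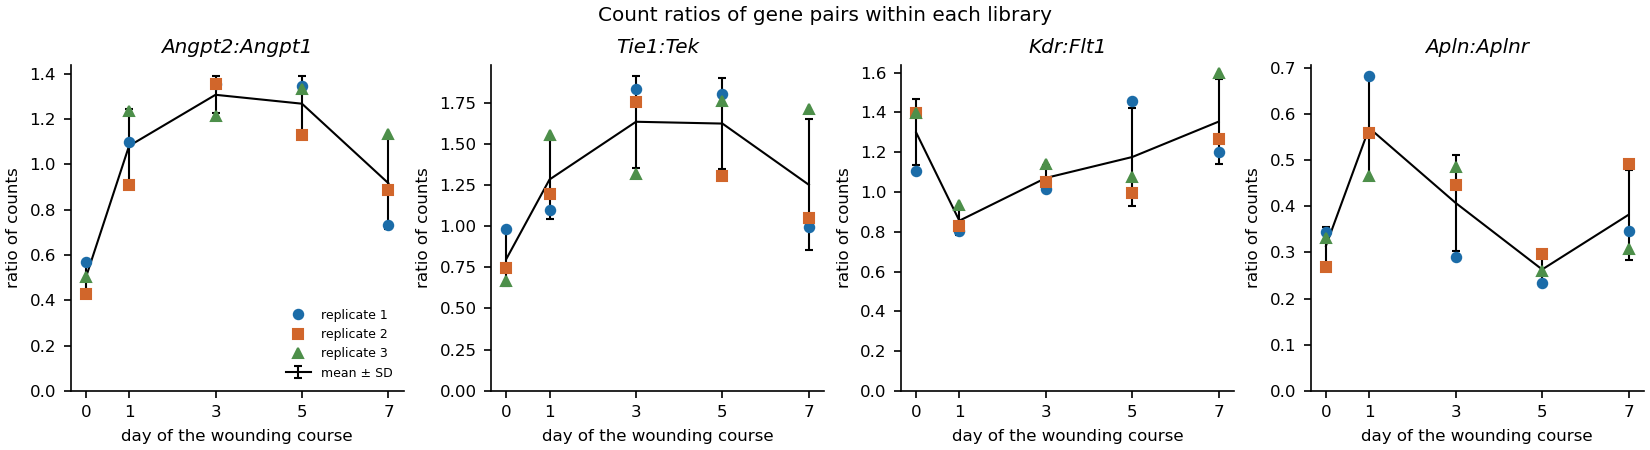
Ratios of counts within each library (vertical axes, from 0) against the day of the wounding course for 4 gene pairs, with a symbol per library and the mean with SD. The Angpt2:Angpt1 and Tie1:Tek ratios lie above their day 0 values in all 12 later libraries, and Kdr:Flt1 dips and Apln:Aplnr peaks at day 1.

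Endothelial markers in general were also higher at the early times. The 20 markers summed to 677 ± 39.9 CPM (SD, n = 3) at day 0, 856 ± 96.0 at day 1, 1194 ± 201 at day 3, 914 ± 277 at day 5 and 656 ± 89.5 at day 7. The difference between day 0 and all later libraries did not pass (0.37 on the log2 scale, exact permutation adjusted p = 0.225), but all libraries of day 1 and of day 3 lay above day 0. At day 3, edgeR called 0 of the 20 markers, with 16 at an unadjusted p under 0.05. DESeq2, which also called more of all genes, called 12 of the 20 higher. All 20 had a positive difference at day 3, with a median of 0.70 on the log2 scale. Each endothelial gene was therefore also expressed as a share of that sum, its counts as a percent of the counts of the 20 markers.

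Relative to the endothelial sum, Apln was still higher after day 0. Its share was 1.00% ± 0.19 (SD, n = 3) at day 0 and 2.24% ± 0.26, 2.32% ± 0.39, 1.53% ± 0.22 and 2.02% ± 0.04 at day 1, 3, 5 and 7. All 12 later libraries were above day 0, by 1.01 on the log2 scale on average (exact permutation p = 0.0022, the smallest possible, adjusted p = 0.00816). Aplnr, at 3.19% ± 0.49 at day 0, had 3.99% ± 0.51, 5.84% ± 1.01, 5.94% ± 1.55 and 5.51% ± 1.35 at the later times, again above day 0 in 12 of 12 libraries (0.71 on the log2 scale, exact permutation adjusted p = 0.00816). Its call was lost without day 0 replicate 1 (exact permutation adjusted p = 0.0612).

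Angpt2 made up 1.93% ± 0.16 (SD, n = 3) of the endothelial sum at day 0, 3.02% ± 0.17 at day 1, 2.26% ± 0.35 at day 3, 2.68% ± 0.31 at day 5 and 3.50% ± 0.25 at day 7. It was above day 0 in 11 of 12 later libraries, by 0.55 on the log2 scale (exact permutation adjusted p = 0.00816), with day 3 the exception where libraries overlapped. This did not hold without day 0 replicate 1 (exact permutation adjusted p = 0.0612) or with Pecam1 and Cdh5 alone as the sum (0.44, exact permutation adjusted p = 0.121). Esm1 was above day 0 in 9 of 12 libraries, by 1.06 (exact permutation adjusted p = 0.0286), and this call was lost in 4 settings: without day 0 replicate 1 or 2 (0.80 and 0.94, exact permutation adjusted p = 0.161 and 0.0893), without both hair-rich libraries (0.95, adjusted p = 0.0511) and with Pecam1 and Cdh5 alone (0.96, adjusted p = 0.0694).

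Among the receptors, Tek and Kdr took a smaller share after day 0 and Tie1 and Flt1 did not pass. All shares have the same denominator, so they are not separate results. At day 3 mean Kdr was 46.23 CPM against 37.3 CPM at day 0, while the endothelial sum was 1194 against 677 CPM. At day 7 mean Kdr was 28.18 CPM and the sum 656 CPM. Tek made up 7.01% ± 1.71 (SD, n = 3) of the endothelial sum at day 0, with 5.09%, 7.57% and 8.35% in replicates 1, 2 and 3, and 3.86% ± 0.30, 3.79% ± 0.48, 3.65% ± 0.31 and 4.73% ± 1.36 at day 1, 3, 5 and 7. It was below day 0 in 11 of 12 later libraries, all but day 7 replicate 1, by 0.80 on the log2 scale or 1.74-fold (exact permutation adjusted p = 0.00816). Kdr went from 5.51% ± 0.54 to 4.5% ± 0.48, 3.91% ± 0.44, 4.09% ± 0.48 and 4.29% ± 0.04, below day 0 in 11 of 12 libraries, by 0.39 on the log2 scale (exact permutation adjusted p = 0.00816, and 0.0571 without day 0 replicate 1). Tie1 had 5.42% ± 0.35 at day 0 and means of 4.92% to 6.11% later (difference of 0.05, exact permutation adjusted p = 0.681, and -0.06 with Pecam1 and Cdh5 alone). Flt1 had 4.29% ± 0.66 at day 0, 5.30% ± 0.87 at day 1 and 3.22% ± 0.48 at day 7 (difference of -0.15, exact permutation adjusted p = 0.517).

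**Figure D4:**
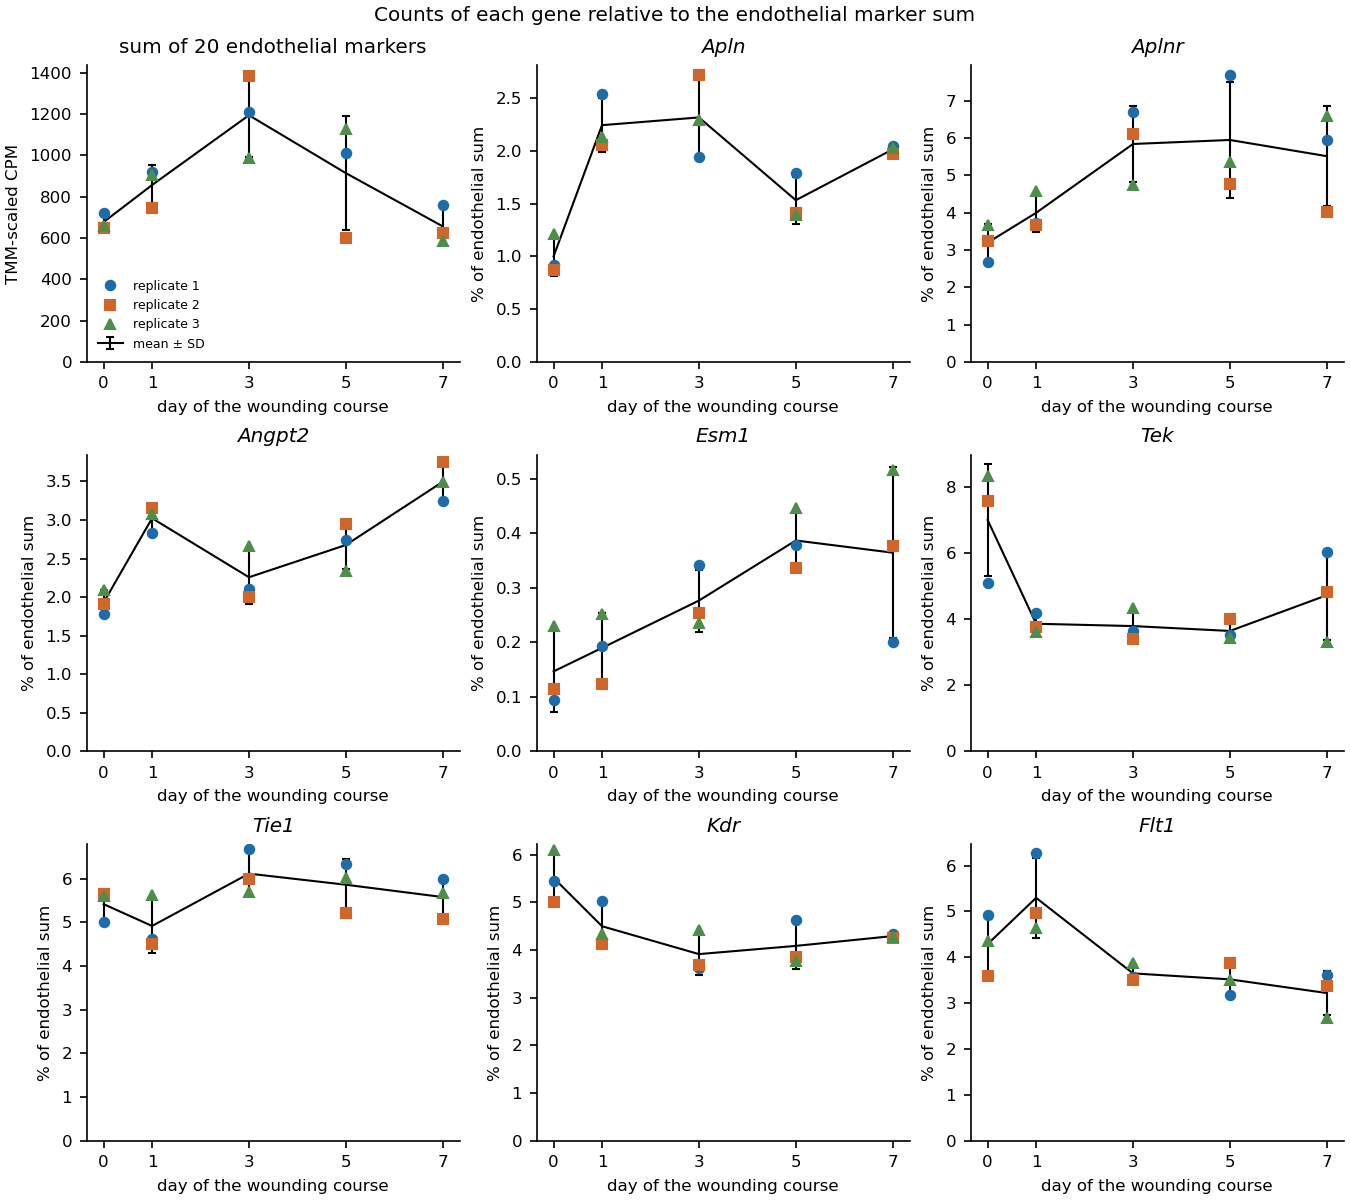
The first panel shows the summed TMM-scaled CPM of 20 endothelial markers, and the others show the counts of a gene as a percent of the counts of those markers (vertical axes, from 0), against the day of the wounding course, with a symbol per library and the mean with SD. Apln and Aplnr take a larger share than at day 0 in all 12 later libraries, Tek and Kdr a smaller one in 11 of 12, and Tie1 lies between 4.51% and 6.67%.

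Other genes of the same pathways were counted beside these 10. The shares of all genes called, given above, are the background of the edgeR calls only. DESeq2 called more of all genes than edgeR at each time, as counted in the closing section on processing. Counts at an unadjusted p against day 0 have no share of all genes beside them and are not read as an excess. Of 18 listed genes of VEGF, angiopoietin and apelin signalling, 17 were in the files and 16 were tested. At day 1, 1 of the 16 rose, Vegfd, a growth factor for lymphatic vessels, from 18.1 to 38.3 CPM or by 1.08 ± 0.22 (SE) on the log2 scale (edgeR adjusted p = 0.0173). EdgeR called 0 of the 16 at day 3 and day 5, with 4 at an unadjusted p under 0.05 each time, while DESeq2 called 1 higher at day 3 and 1 in each direction at day 5. At day 7, 1 fell, the adaptor Dok2, from 43.0 to 19.7 CPM or by 1.13 ± 0.26 (edgeR adjusted p = 0.0252). Macrophage markers moved as well: the 9 summed to 3155 to 4621 CPM at day 0 and 2013 to 3376 CPM at day 7. The part of leukocytes in the Dok2 values was not tested. The medians of the 16 were 0.05, 0.19, 0.01 and -0.37 at day 1, 3, 5 and 7.

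Of 26 genes of tip cells, stalk cells and Notch signalling, 1 rose at day 1, 3 at day 3 and 0 at day 5 and day 7 by edgeR, with 8 and 5 at an unadjusted p under 0.05 at day 5 and day 7, where DESeq2 called 2 each time. At day 1 this was Adm, the vasoactive peptide adrenomedullin, from 6.04 to 45.5 CPM. Adm is also in the list of hypoxia-inducible genes below and is counted there again. At day 3 these were Cxcr4, a chemokine receptor of tip cells and leukocytes, by 1.48 ± 0.26 (SE) on the log2 scale (edgeR adjusted p = 0.0364), Notch4, the endothelial Notch receptor, by 1.25 ± 0.25 (edgeR adjusted p = 0.0447), and Mcam, an adhesion molecule of endothelial and mural cells, by 1.03 ± 0.21 (edgeR adjusted p = 0.0496). The medians of the 26 were 0.21, 0.35, 0.36 and 0.24 at the 4 times. Among the general endothelial markers, Ecscr, a regulator of endothelial migration, rose at day 1, from 19.5 to 41.5 CPM (edgeR adjusted p = 0.0156).

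Hypoxia-inducible genes, to which Vegfa and Apln are known to belong, were read beside them. Of 20 tested, 4 rose and 1 fell at day 1, 3 rose at day 3, 1 rose at day 5, and 1 rose and 1 fell at day 7, with medians of 0.16, 0.29, -0.01 and -0.06 on the log2 scale. Slc16a3, a lactate transporter, rose by 1.22 ± 0.16 (SE) at day 1 and 0.96 ± 0.16 at day 3 and fell by 0.70 ± 0.16 at day 7 (edgeR adjusted p = 0.005, 0.0334 and 0.0241). Egln1, an oxygen sensor, fell by 0.35 ± 0.10 at day 1 (edgeR adjusted p = 0.047). The glucose transporter Slc2a1 rose by 1.22 ± 0.22 (SE) on the log2 scale at day 1 and 1.29 ± 0.22 at day 3 (edgeR adjusted p = 0.0138 and 0.0334). Egln3, a related oxygen sensor, rose by 0.84 ± 0.15 at day 3, 0.74 ± 0.15 at day 5 and 0.87 ± 0.15 at day 7 (edgeR adjusted p = 0.0334, 0.0484 and 0.00974). Lyve1, a marker of lymphatic endothelium and of macrophages, fell by 1.44 ± 0.25 at day 7 (edgeR adjusted p = 0.0101), when 6 of 9 macrophage markers fell as well.

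The tested genes most alike in pattern were taken by the Pearson correlation of log2 CPM over the 15 libraries, which share their times, so the values describe and carry no test. For Tie1 they were the endothelial genes Cdh5 (r = 0.959), Pecam1 (0.947) and Notch4 (0.935). For Flt1 they were the integrin gene Itga7 (0.957), the hypoxia-regulated transcription factor gene Epas1 (0.948) and the endothelial nitric oxide synthase gene Nos3 (0.944). Aplnr was closest to Fmnl3 (0.932), to the adhesion molecule gene Vcam1 (0.927) and to the basement membrane collagen gene Col18a1 (0.926). For Apln the first was Ywhah (0.931) and the second the transcription factor gene Runx1 (0.926), which was also second for Angpt2 (0.917) after the collagen gene Col8a1 (0.932). Vegfa was closest to Bbx (0.851), Kdr to Fbxo27 (0.928) and Angpt1 to Cyld (0.884). Esm1 was closest to Fetub (0.889), Reg1 (0.883) and Sprr2a2 (0.870). Sprr2a2 encodes a protein of the cornified envelope of the epidermis. None of the 3 is in the endothelial marker list. Tek was closest to Fam129a (0.960) and Gaa, the lysosomal glucosidase (0.956).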

How the data were processed

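RNA of 15 mouse skin libraries was measured by mRNA sequencing, per the labels' protocols. For each library the authors deposited a file of estimated counts by gene symbol; kallisto 0.43 is named in the submitters' processing notes. Index, genome build and strand use are not given in the sources. Counts were whole as deposited. Of 30307 rows, 26 carried calendar dates in place of symbols (at most 0.179% of the counts of a library) and were left out.

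In R 4.3.3, edgeR 4.0.16 kept genes by its expression filter (minimum count 10), scaled by TMM and fitted 1 robust quasi-likelihood model over 5 times. Benjamini-Hochberg adjustment ran over 17136 genes, with calls under 0.05. The common biological coefficient of variation over all genes was 30.9%, and counting error is small beside that value except for Esm1. Some of the 10 genes spread less within a time. Angpt2 at day 0 had 13.0 ± 0.71 CPM (SD, n = 3) from 489 to 694 counts, so counting error is a larger part of its spread there. DESeq2 1.42.0 was an alternative. CPM is given with TMM scaling. Ratios of counts had 0.5 added to each term and were tested by exact permutation. The fit and the permutation test were checked on simulated data with known changes.

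The 10 genes and all gene lists were chosen with earlier results of these data known. All 10 are described. From other lists up to 4 called genes with the largest difference per comparison may be named (not all are), or 2 with the smallest p where none was called, and for likeness the 3 genes with the highest correlation (prior count 2). Promoters of RefSeq (GRCm38.p6) were matched by symbol, which found 7 of 10 genes. Alternatives were RLE scaling, DESeq2, no filter, a replicate block, fits of 2 times alone, and leaving out libraries.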

Additional observations from a re-analysis of the deposited data

How the results depend on the processing

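Scaling by RLE in place of TMM and 5 added counts in the ratios moved no call of the 10 genes or of the ratios. Of all genes, edgeR called 1299 at day 1, 135 at day 3, 86 at day 5 and 1208 at day 7 against day 0, 1, 4 and 1 between neighbouring times, and 2380 over the course. Leaving out 1 library gave 33 to 2411, 0 to 629, 0 to 495 and 279 to 2074 against day 0, 0 to 29, 0 to 25 and 0 to 1 between neighbours, and 1174 to 2973 over the course. Of the 10 genes it gave 0 to 2, 0 to 3, 0 to 3 and 0 to 2 against day 0, 0 between neighbours and 2 to 7 over the course. DESeq2 called 2786, 943, 1160 and 2822 genes against day 0, 465, 520 and 151 between neighbours and 5853 over the course, with 5, 4 and 3 of the 10 at day 3, 5 and 7, 2 between day 3 and day 5, and 7 over the course. Against day 0 replicate 1 alone, edgeR called 0 genes at day 1, 3 and 5, 79 at day 7 and 1008 over the course, with 0 of the 10 each time; the cause was not tested.

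Whether replicate numbers pair the libraries was not settled. Same-numbered libraries of different times correlated at 0.03 on average over 30 pairs (-0.73 to 0.49), and others at -0.02 over 60 (-0.62 to 0.78). The correlation was over 0.1 in 13 of the 30 pairs and in 16 of the 60. Of 15 libraries, 4 were closest to one of their own number. A mean over pairs that spread this widely cannot exclude a pairing. With the number as a replicate block, 862, 78 and 27 genes were called at day 1, 3 and 5 and 4, 1 and 0 between neighbours, with 0 of the 10 genes at day 5 (Angpt2, edgeR adjusted p = 0.0541) and Aplnr lost at day 3 (edgeR adjusted p = 0.0536). Fitting only the times compared gave 0 genes at day 5, 65 at day 7 and 2, 0 and 0 between neighbours, with 0 of the 10 at day 5 and day 7. Without a low-count filter 71 genes were called at day 3 and 9 between day 3 and day 5. Without both hair-rich libraries 306 and 786 genes were called at day 5 and day 7, 0 between day 3 and day 5 or day 5 and day 7, and 3828 over the course, with 4, 2 and 7 of the 10 at day 5, day 7 and over the course.

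Relative to the endothelial sum, Esm1 differed by 0.95 without the hair-rich libraries and by 0.96 with Pecam1 and Cdh5 alone, where Angpt2 differed by 0.44 and Tie1 by -0.060, none of them called. Leaving out 1 library gave 0.59 to 0.81 for Aplnr, 0.49 to 0.61 for Angpt2, -0.46 to -0.32 for Kdr, 0.80 to 1.45 for Esm1 and -0.010 to 0.077 for Tie1. Against day 0 replicate 1 alone all 7 calls of the 10 genes against day 0 were lost. Where a time keeps 1 library, its spread is assumed to be that of the other times.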

Other observations

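Markers of the cells around the vessels were counted as well. Over all genes tested, edgeR called 4.22% higher and 3.36% lower at day 1, 0.595% higher at day 3 and 3.1% higher at day 7. A single call in a short list is therefore not read as an excess. Of 12 mural cell markers edgeR called 1 lower at day 1, Ndufa4l2 (a mitochondrial protein enriched in pericytes, from 106 to 44.1 CPM), 1 higher at day 3, Mcam, and 1 higher at day 7, Higd1b (from 1.64 to 3.22 CPM). Mcam is the gene already counted above among those of tip cells, stalk cells and Notch signalling. Of 7 lymphatic markers 1 rose at day 1, Pdpn, a surface glycoprotein that keratinocytes and fibroblasts also carry, from 61.2 to 250.6 CPM. All 8 neutrophil markers rose at day 1, with a median log2 difference of 3.13, and 2 of them at day 3. Among 10 fibroblast markers 1 rose at day 1, Pdgfra (from 174.5 to 423.8 CPM), and 4 fell, the largest being Clec3b (from 607.8 to 148.6 CPM). Of 12 keratinocyte markers 1 rose at day 1, Dsg3, and 1 at day 3, Krt14.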
